A study of Homo sapiens with 6 samples.

Results

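The genes described here are the small nucleolar RNAs (snoRNAs), small Cajal body RNAs (scaRNAs) and spliceosomal small nuclear RNAs (snRNAs) of LNCaP cells, a human prostate cancer cell line. They were chosen by name, as every gene whose symbol begins with SNORA, SNORD, SCARNA or RNU followed by a digit, and 137 of the 19571 genes in the deposited expression table met that rule. There were 78 SNORA, 17 SNORD, 21 SCARNA and 21 RNU genes. The study compared 3 libraries from LNCaP cells stably carrying Flag-KDM4B (replicates 1, 2 and 4) with 3 libraries from LNCaP cells carrying the plenti6 control plasmid (the vector libraries, replicates 1, 2 and 3). KDM4B is a histone lysine demethylase. All cells had been kept for 3 days in medium with 10% CFBS before total RNA was extracted. The labels do not say whether the replicates were separate cultures, so p-values measure only the spread between these libraries, which may be technical.

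Guide snoRNAs base-pair with other RNAs and direct enzymes to single nucleotides. Box H/ACA RNAs (SNORA) guide pseudouridylation, box C/D RNAs (SNORD) guide ribose methylation, and scaRNAs, of either box, guide the same modifications of snRNAs in Cajal bodies. Most human guide RNAs are trimmed out of introns of other genes, whereas U3 snoRNA and the snRNAs are transcribed from promoters of their own, and none of the mature forms carries a poly(A) tail.

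The KDM4B-labelled libraries did not stand apart in the KDM4B gene itself, at 26.33, 27.17 and 25.76 FPKM (fragments scaled by gene length and library depth), against 24.73, 25.15 and 25.28 FPKM in the vector libraries. The lowest of the former lay above the highest of the latter, but the difference on the log2(FPKM + 1) scale was 0.07 (SE 0.04) and did not pass the test (limma, adjusted p = 0.113). After each library was scaled by its median of ratios it was 0.29 and passed. The groups are therefore called by their labels throughout, and every rise or fall is that of the KDM4B-labelled libraries relative to vector. The LNCaP markers KLK3, FOLH1 and HOXB13 were present in all libraries, and of 6 immune, endothelial and fibroblast markers with a row PTPRC, CD3E and PECAM1 were at or near 0 in all libraries. LYZ averaged 3.14 FPKM in the KDM4B-labelled and 2.65 FPKM in the vector libraries, COL1A1 2.92 and 2.36, and VWF 0.40 and 0.92, and their part in the results was not tested. The KDM4B-labelled titles end in a suffix that the other titles do not have, and whether it marks a batch is not stated, so batch and group cannot be told apart. Ribosomal RNA genes, whose RNA also lacks a poly(A) tail, made up 10.5%, 8.14% and 10.2% of all FPKM in the KDM4B-labelled libraries and 0.473%, 0.144% and 0.147% in the vector libraries. The sources used here do not say whether poly(A) selection or removal of ribosomal RNA was used.

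Few reads stood behind most of these short genes. Lengths in the RefSeq table, known for 136 genes, ran from 93 to 421 bases with a median of 135. The deposited FPKM moved in steps. With the smallest step taken as 1 read, 219 of 220 low values lay within 0.15 of a whole number of reads. Library depths and the bases taken off each length were set to bring these same values near whole numbers. The check left out the rows of the U1, U6 and RNU105 genes. A U1 copy had 13.3, 9.27 and 14.7 implied reads in the KDM4B-labelled libraries. Reads for such rows are rounded, and their intervals are approximate. Reads were counted back from FPKM on this basis. By that count 12 genes were listed at 0 in every library, 54 had 1 to 3 reads in all 6 libraries together, 41 had signal in 1 library, and 33 had signal in all 6. A mean of at least 1 FPKM, the level required for the test, was reached by 30 genes: 13 SNORA, 3 SNORD, 3 SCARNA and 11 RNU. The other 107 were not tested, and a gene can reach that mean through the group in which it is high. Intervals for reads cover counting error only.

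**Figure D1:**
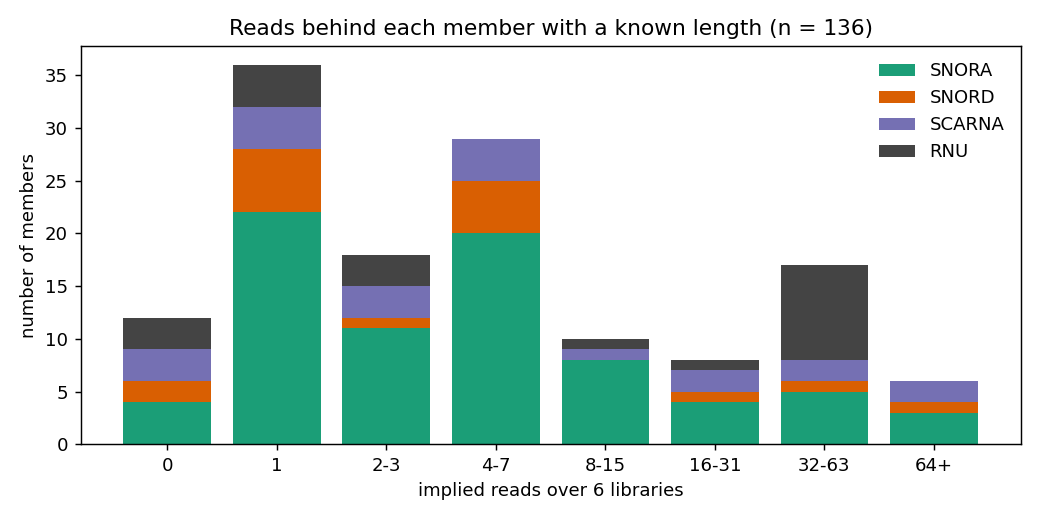
Number of small RNA genes (vertical axis) by the number of reads implied by their FPKM over the 6 libraries (horizontal axis, bins), stacked by class. Of 136 genes with a known length, 36 had 1 read and 6 had 64 or more.

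Among the 30 tested genes 9 rose and 1 fell at an adjusted p of 0.05 (limma, Benjamini-Hochberg over 12148 genes). Over all tested genes 13.4% rose and 60.3% fell. The 9 that rose were SNORD3A, 6 copies of the U1 gene, RNU105A and RNU2-1, and the 1 that fell was SNORA65. Because the 6 U1 copies had identical values, they hold 1 measurement. The median difference was 0.20 over the tested small RNAs and -0.22 over all tested genes, and the corresponding medians after scaling were 0.37 and -0.01, when 11 of the small RNAs rose and 1 fell, and 67.9% of all tested genes were called (32.5% higher, 35.5% lower). At a filter of 0.1 FPKM 18 of 92 small RNAs rose and 5 fell, against 13.5% and 51.9% of all genes. Without a filter 12 of 125 rose and 3 fell, where 51.1% of all genes were called, 11% as higher and 40.1% as lower. In a bulk library, fewer cells with an RNA and less of it per cell cannot be told apart.

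**Figure D2:**
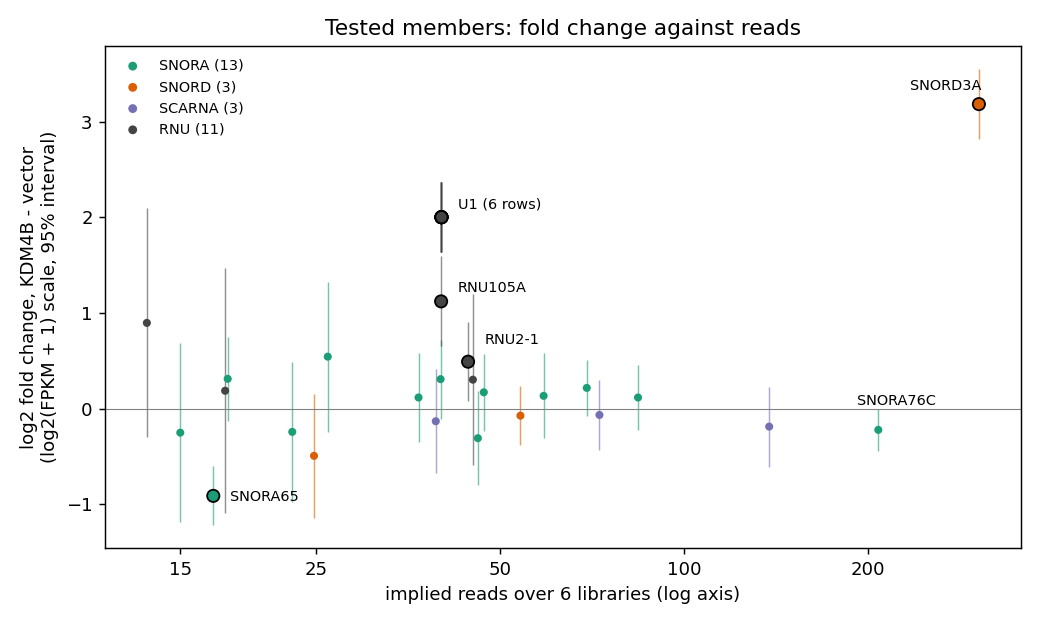
Difference between the KDM4B-labelled libraries and vector on the log2(FPKM + 1) scale (vertical axis, with 95% intervals) against implied reads over 6 libraries (horizontal log axis) for the 30 tested genes, coloured by class, with those that passed the test outlined in black. SNORD3A lies at 3.18, the 6 overlapping U1 points come next, and most SNORA and SCARNA points near 0.

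SNORD3A encodes U3, the box C/D RNA that base-pairs with the ribosomal precursor and is needed for its early cleavages rather than for methylation. It stood at 22.08, 18.34 and 28.25 FPKM in the KDM4B-labelled libraries and at 2.46, 1.24 and 1.25 FPKM in the vector libraries. The groups did not overlap, and vector replicate 1 was the highest of its group. The difference was 3.18 on the log2(FPKM + 1) scale (SE 0.17, limma, adjusted p = 1.74e-08). It rested on 283 reads against 20, a ratio of 13.8 with a 95% counting interval of 8.79 to 23.0, and was called whichever library was left out. SNORD3C, another U3 gene, had 1 read in all, in replicate 1 of the KDM4B-labelled libraries.

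The other 2 tested box C/D RNAs did not pass the test with all libraries in the fit. SNORD17, a long guide RNA within SNX5, measured 1.93, 2.18 and 1.53 FPKM in the KDM4B-labelled libraries and 1.54, 1.77 and 2.90 FPKM in vector, and the groups overlapped. SNORD22, a snoRNA within SNHG1 that has been linked to maturation of the small ribosomal subunit RNA, measured 1.51, 3.11 and 0.52 against 3.68, 2.62 and 1.58 FPKM. Their limma adjusted p were 0.656 and 0.152, with 54 and 25 reads in all, and SNORD22 was called lower without replicate 2 of the KDM4B-labelled libraries (adjusted p = 0.00847). Without SNORD3A, the other 16 SNORD genes together had 55 reads in the KDM4B-labelled libraries and 60 in vector.

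U1 snRNA recognises the start of introns by base pairing. Its genes RNU1-1, RNU1-2, RNU1-3, RNU1-4, RNU1-27P and RNU1-28P had the same values in every library, and the copies cannot be told apart. Each was listed at 4.56, 3.28 and 5.22 FPKM in the KDM4B-labelled libraries and at 0.68, 0.32 and 0.04 FPKM in vector. Summed over the 6 copies, U1 measured 27.36, 19.68 and 31.32 FPKM against 4.08, 1.92 and 0.24 FPKM. The groups did not overlap, and vector replicate 1 was again the highest vector library. In a fit with the copies summed, the difference was 3.34 (SE 0.37, limma, adjusted p = 7.73e-06), on 223 reads against 17. The mean summed FPKM was 12.6 times that of vector, and 24.2 times without vector replicate 1.

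U2 pairs with the branch point of the intron. Its gene RNU2-1 measured 4.05, 1.77 and 2.38 FPKM in the KDM4B-labelled libraries and 1.49, 1.20 and 2.11 FPKM in vector, and the groups overlapped. Its difference was 0.49 (SE 0.19, limma, adjusted p = 0.0324), and the 28 reads against 16 gave a ratio of 1.71 with a counting interval of 0.894 to 3.39, which includes 1. The call did not hold without replicate 1 of the KDM4B-labelled libraries (adjusted p = 0.139), vector replicate 1 (0.0714) or vector replicate 2 (0.112).

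U6 lies at the catalytic centre of the spliceosome. The 3 tested U6 genes, RNU6-2, RNU6-33P and RNU6-36P, shared identical values in some libraries and not in others. In replicate 2 of the KDM4B-labelled libraries, RNU6-2 was listed at 10.55 FPKM and both other copies at 0, while in replicate 1 each of the 3 was listed at 4.29 FPKM. Separate values for the copies therefore do not describe separate genes, and none of the 3 passed the test alone with all libraries in the fit. RNU6-33P passed without replicate 2 of the KDM4B-labelled libraries (limma, adjusted p = 0.00386) or vector replicate 2 (0.0266). Summed, they measured 12.87, 10.55 and 8.01 FPKM in the KDM4B-labelled libraries and 8.08, 6.03 and 6.74 FPKM in vector. The lowest of the former lay just under the highest of the latter. The sum rose by 0.52 on the log2(FPKM + 1) scale (SE 0.13, limma, adjusted p = 0.00408) and was called with each library left out, but the 46 reads against 30 gave a ratio interval of 0.926 to 2.46.

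The other spliceosomal RNAs were at the limit of detection. RNU4-2, which pairs with U6 before catalysis, had 3 reads in the KDM4B-labelled libraries and 0 in vector. RNU5A-1, the U5 gene that holds exon ends, had 1 read against 0. Of the RNAs of the minor spliceosome, which removes a rare class of introns, RNU11 and RNU4ATAC each had 1 read against 0, and RNU6ATAC had 1 against 2. No difference could be detected at these depths.

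**Figure D3:**
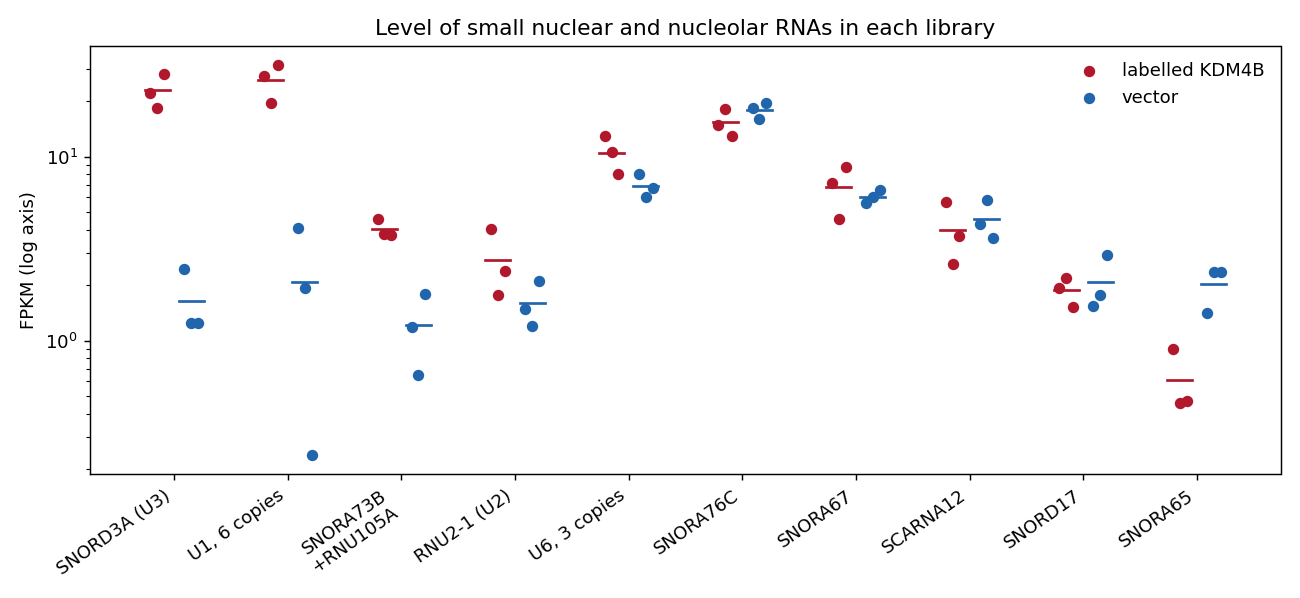
FPKM (log axis) of 10 small RNAs or summed copies in each of the 3 KDM4B-labelled libraries (red) and the 3 vector libraries (blue), with bars at the group means. U3, U1 and the sum of SNORA73B and RNU105A lie apart between groups, and SNORA76C, SNORA67, SCARNA12 and SNORD17 overlap.

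RNU105A belongs by function to the box H/ACA RNAs. The RefSeq table gives its gene ID the symbol SNORA73B, and the RNA, also called U17 or E1, acts in processing of the small ribosomal subunit RNA. It measured 3.29, 3.00 and 1.89 FPKM in the KDM4B-labelled libraries and 0.38, 0.38 and 1.53 FPKM in vector, without overlap. The difference was 1.12 (SE 0.21, limma, adjusted p = 0.000562), on 31 reads against 9. The deposited table also has a row named SNORA73B under another gene ID, at 1.29, 0.79 and 1.85 against 0.80, 0.27 and 0.27 FPKM. Since reads may have been divided between these rows, they were also summed, and the sum of 4.58, 3.79 and 3.74 against 1.18, 0.65 and 1.80 FPKM rose by 1.22 (SE 0.15, limma, adjusted p = 1.85e-05).

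SNORA73A, the sister copy of U17 in the same host gene SNHG3, measured 3.57, 3.38 and 2.87 FPKM in the KDM4B-labelled libraries and 2.36, 2.11 and 3.72 FPKM in vector. Vector replicate 3 was the highest of the 6 libraries. The difference of 0.22 did not pass the test as deposited (limma, adjusted p = 0.156) and passed after scaling, at 0.39 (adjusted p = 0.0256), and as deposited without vector replicate 3 (adjusted p = 0.0022). SNORA63, within EIF4A2, did not pass as deposited, at 0.31 (limma, adjusted p = 0.158), and passed after scaling, at 0.48 (adjusted p = 0.0488). It also passed without replicate 4 of the KDM4B-labelled libraries (adjusted p = 0.0107) or vector replicate 3 (0.0187).

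SNORA76C, which RefSeq names SNORA50C, had the highest mean of all these genes. It measured 14.90, 18.19 and 13.02 FPKM in the KDM4B-labelled libraries and 18.42, 16.01 and 19.52 FPKM in vector, with overlap. The difference was -0.22 (95% interval -0.44 to -0.001, limma, adjusted p = 0.0649) as deposited and -0.01 after scaling. It was called lower without replicate 2 of the KDM4B-labelled libraries (adjusted p = 0.0028) and without vector replicate 2 (adjusted p = 0.0234). With 97 reads against 111, the ratio interval was 0.644 to 1.13.

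SNORA65, a guide RNA inside the ribosomal protein gene RPL12, was the one small RNA that fell. It measured 0.90, 0.46 and 0.47 FPKM in the KDM4B-labelled libraries and 1.41, 2.35 and 2.36 FPKM in vector, without overlap. These values stand for 4 reads (exact Poisson interval 1.09 to 10.2) against 13 (6.92 to 22.2). The difference was -0.91 (SE 0.14, limma, adjusted p = 0.000110) and was called in every alternative run, though the reads allow any ratio from 0.071 to 0.974.

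The other tested SNORA genes did not pass as deposited, with differences between -0.31 for SNORA70 and 0.54 for SNORA57. SNORA67, within EIF4A1, measured 7.14, 4.59 and 8.78 FPKM in the KDM4B-labelled libraries and 5.57, 6.04 and 6.55 FPKM in vector, and its 45 reads against 39 left a ratio between 0.718 and 1.78. Without replicate 2 of the KDM4B-labelled libraries SNORA67 was called higher (limma, adjusted p = 0.00419), and without vector replicate 2 SNORA70 was called lower (0.0109). SNORA81, within EIF4A2, measured 2.80, 2.86 and 4.16 against 4.17, 3.23 and 1.62 FPKM, so that the highest and the lowest library were both vector libraries. Among untested SNORA and SNORD genes, SNORA29 and SNORD15B had signal in all 3 KDM4B-labelled libraries and were listed at 0 in all 3 vector libraries, each on 6 reads; they were picked for that pattern after their values were seen.

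None of the 3 tested scaRNAs passed the test with all libraries in the fit. SCARNA12, within PHB2, measured 5.65, 2.60 and 3.72 FPKM in the KDM4B-labelled libraries and 4.29, 5.84 and 3.61 FPKM in vector. Its difference of -0.19 did not pass the test (SE 0.19, limma, adjusted p = 0.389), and 65 reads against 73 put the ratio between 0.614 and 1.23. SCARNA17 had 34 reads against 38 and SCARNA16 had 18 against 21, with limma adjusted p = 0.734 and 0.645. SCARNA12 was called lower without replicate 1 of the KDM4B-labelled libraries (limma, adjusted p = 0.0338), and SCARNA16 without vector replicate 1 (0.0402). SCARNA2, which has a gene of its own, measured 0.97, 0.88 and 0.99 against 0.99, 0.78 and 0.56 FPKM and lay just under the level for the test. SCARNA10 had 16 reads against 6, a ratio of 2.61 with an interval of 0.969 to 8.14.

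A pair of the tested guide RNAs overlap an annotated microRNA precursor, and their reads cannot be divided between the guide RNA and the precursor. The hairpins are shown because they make up a large stretch of the gene that was counted. MIR1248 shares 102 of its 106 bases with SNORA81, a gene of 177 bases, and MIR6516 shares 77 of its 81 bases with SCARNA16, a gene of 187 bases. Both sequences are from RefSeq (GRCh38.p14, plus strand, chr3:186786672-186786777 and chr17:77089417-77089497), written 5′ to 3′ with the annotated mature microRNA arms in capitals.
MIR1248: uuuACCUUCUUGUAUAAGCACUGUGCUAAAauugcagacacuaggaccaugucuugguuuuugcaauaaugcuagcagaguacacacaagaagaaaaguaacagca
MIR6516: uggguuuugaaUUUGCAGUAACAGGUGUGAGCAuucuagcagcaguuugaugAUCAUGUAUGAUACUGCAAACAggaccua
Neither gene passed the test, so no change was called for either pair of overlapping RNAs.

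Summed by class, the SNORA and SCARNA genes had close levels in both groups as deposited. The SNORA genes summed to 68.9 ± 3.33 FPKM (SD, n = 3) in the KDM4B-labelled libraries and 67.4 ± 0.93 FPKM in vector, a ratio of 1.02, and the SCARNA genes to 11.9 ± 0.67 and 11.8 ± 1.84 FPKM, a ratio of 1.01. After scaling the ratios were 1.20 and 1.19. The SNORD sum had a ratio of 3.32, and 0.969 without SNORD3A. The RNU sum had a ratio of 3.62, and 1.74 without the 6 U1 copies. Over all 137 genes there were 1341 reads in the KDM4B-labelled libraries and 791 in vector, and 835 against 754 without SNORD3A and the U1 copies. More of the genes were detected in each KDM4B-labelled library (72, 74 and 76) than in each vector library (62, 64 and 63), at implied depths of 23800000 to 24700000 and 23500000 to 23700000 reads. Of genes with signal in 1 group alone, 31 had it in the KDM4B-labelled libraries and 16 in vector. The 41 genes with signal in 1 library are all among these. Detection over all genes was not computed, so these counts have no share to be read against.

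**Figure D4:**
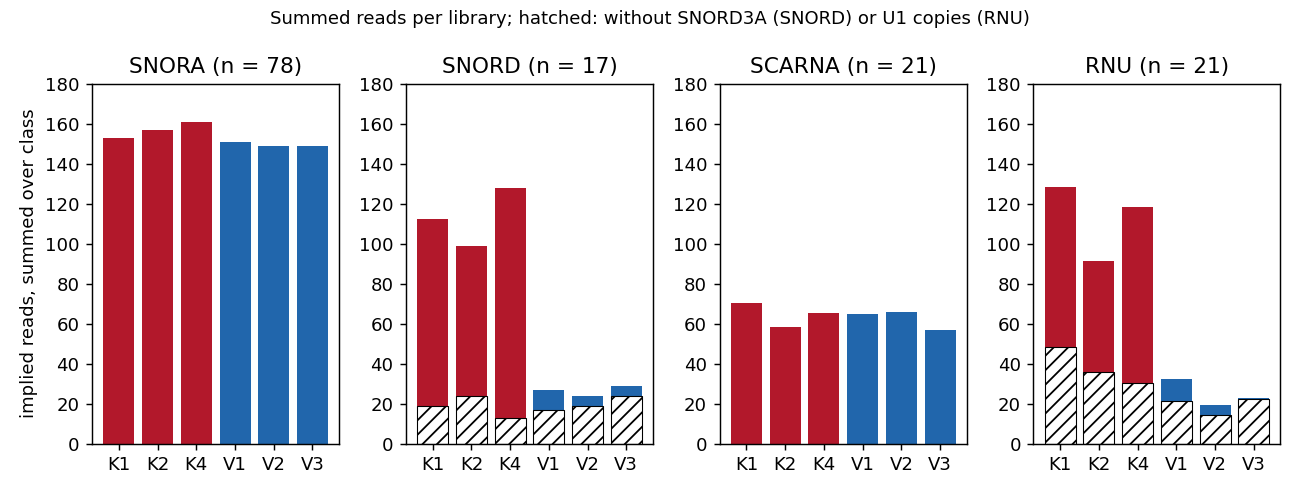
Implied reads summed over each class (vertical axis) in the KDM4B-labelled libraries (K1, K2, K4, red) and vector (V1, V2, V3, blue), with hatched bars for the SNORD sum without SNORD3A and the RNU sum without the U1 copies; SNORA73B has no known length and is not in the sums. The SNORA and SCARNA bars are of like height in both groups, and most of the SNORD and RNU excess lies above the hatching.

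Other RNAs that lack a poly(A) tail were also higher. Of 15 such rows on a list, 12 were tested, and 11 rose and 0 fell, against 13.4% and 60.3% of all tested genes, with a median difference of 3.53. Of the 12, 6 were ribosomal RNA, of which RNA18S5, RNA28S5 and RNA5-8S5 are cut from the RNA45S5 precursor and RNA5S1 and RNA5S16 had identical values, so these are not separate measurements. RN7SK, the RNA that holds the elongation factor P-TEFb inactive, measured 166.08, 115.48 and 164.36 FPKM in the KDM4B-labelled libraries and 15.80, 3.96 and 2.81 FPKM in vector. RPPH1, the RNA of ribonuclease P, measured 36.38, 28.53 and 36.72 against 1.97, 0.71 and 0.86 FPKM. TERC, the telomerase RNA, which carries a box H/ACA domain, measured 3.40, 3.14 and 2.13 against 0.51, 0.51 and 0.31 FPKM. In each of the 3 the groups did not overlap. RN7SL2, an RNA of the signal recognition particle, was the one that did not pass (0.39, limma, adjusted p = 0.121). Vector replicate 1 was the highest vector library for SNORD3A, U1, RN7SK, RPPH1 and the share of ribosomal RNA. Other RNAs differed: RN7SL1 and RN7SL2 were highest in vector replicate 2, and RNU105A and RNU2-1 in vector replicate 3. TERC was level in vector replicates 1 and 2. The part of ribosomal RNA content or library preparation in the differences between groups was not tested.

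Position was the next feature compared. Of the 137 genes, 118 lie in the RefSeq annotation within the span of another gene, without regard to strand, which the table does not give. The 118 inside another gene had a KDM4B to vector ratio of summed FPKM of 1.21, and the 116 that remain without U1 copies had 1.10. U1 copies, with their identical values, lie in both sets. The 19 outside had a ratio of 2.29, and the 14 that remain without SNORD3A and the U1 copies had a ratio of 1.07.

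Of the tested genes, 18 lie in a host gene that was itself tested, in 13 distinct hosts. Of these hosts 11 fell and 2 rose as deposited, and 8 fell and 2 rose after scaling. Over all tested genes 60.3% fell and 13.4% rose as deposited, and 35.5% and 32.5% after scaling. The median difference was -0.47 for the host and 0.12 for the small RNA, and 11 of the 18 had the same sign. SNHG1 fell by 1.73 on the log2(FPKM + 1) scale and SNHG12 fell by 1.56, both of them noncoding hosts whose spliced RNA is known to be short-lived.

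To add depth, reads were pooled over all small RNAs in 1 host, which left 13 hosts with at least 20 reads. The ratio of the host's FPKM lay within the counting interval of its small RNAs for 9 hosts and below it for 4. Where several genes spanned a small RNA, as for 11 of the 110 with a host in the table, the shortest was taken, and 4 of the 13 hosts had such an alternative. EIF4A2, a translation initiation factor gene, had a ratio of 0.641, while SNORA4, SNORA63 and SNORA81 in it had 79 reads against 67, a ratio of 1.15 (0.822 to 1.62). SNHG12 had a ratio of 0.320, and the 3 small RNAs in it had 0.761 (0.350 to 1.62). TAF1D and CSKMT had ratios of 0.640 and 0.630, just under the intervals of their small RNAs, which began at 0.644 and 0.668. LBHD1, which also spans the small RNA in CSKMT, had a ratio of 0.995, inside that interval. For SNHG1 the host ratio of 0.296 lay inside the interval of SNORD22, 0.262 to 1.55. SNHG3 had a ratio of 1.34, and its members RNU105A and SNORA73A had 70 reads against 40, a ratio of 1.71 (1.14 to 2.59). RCC1, which also spans both, had a ratio of 0.981, below that interval. The comparison of a small RNA with its host does not depend on how libraries are scaled, and the spread between replicates is not in these intervals. The mature small RNAs carry no poly(A) tail, and the part of library preparation in this comparison was not tested.

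**Figure D5:**
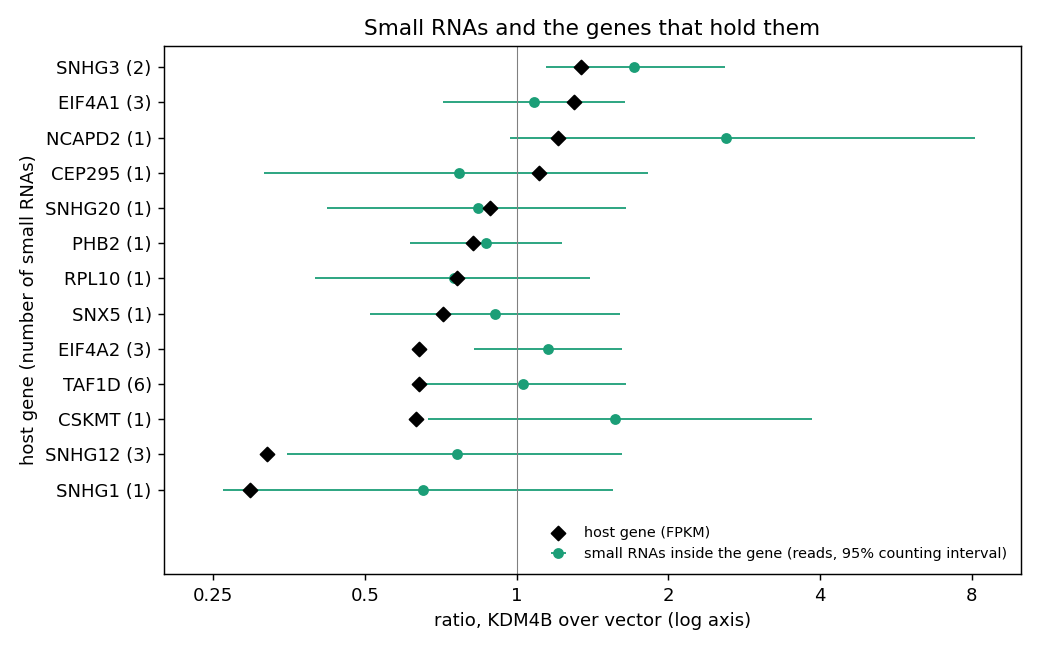
Ratio of the KDM4B-labelled libraries to vector (horizontal log axis) for 13 host genes (FPKM, black diamonds) and for the reads pooled over the small RNAs inside each (green, 95% counting intervals), with the number of small RNAs in brackets. The diamonds of EIF4A2, TAF1D, CSKMT and SNHG12 lie to the left of the intervals.

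The proteins that build and process these RNAs were read from 7 lists with 85 genes, all tested. As deposited 13 rose and 42 fell, and after scaling 42 rose and 20 fell, so the balance of directions turns with the scaling, and the medians were -0.12 and 0.10. All tested genes gave 13.4% higher and 60.3% lower as deposited and 32.5% and 35.5% after scaling, and each list below is to be read against those shares. Among the 4 box C/D core proteins 0 rose and 2 fell as deposited, and 3 rose and 0 fell after scaling. NHP2L1, which binds the box C/D fold, fell by 0.25 on the log2(FPKM + 1) scale as deposited and was not called after scaling. NOP56 fell by 0.12 and after scaling was called higher, at 0.11. Among the 4 box H/ACA core proteins 2 fell, NHP2 by 0.30 and GAR1 by 0.49, and after scaling GAR1 alone of these remained lower (-0.28), while 2 of the 4 rose.

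Several processing factors kept their direction with and without scaling. Of 12 assembly and cap factors 0 rose and 9 fell as deposited, and 3 rose and 6 fell after scaling, the falls including ZNHIT3 (-0.49 and -0.27) and PIH1D1 (-0.50 and -0.28), both known in box C/D assembly. Of 15 genes of the RNA exosome and of snoRNA end trimming 1 rose and 6 fell as deposited and 8 rose and 3 fell after scaling, with falls of the exosome subunits EXOSC8 (-1.03 and -0.81 after scaling) and EXOSC5 (-0.75 and -0.53). Of 20 genes for snRNA transcription and end processing 5 rose and 11 fell as deposited and 9 rose and 6 fell after scaling. SNAPC2, a subunit of the factor that binds snRNA promoters, fell (-0.66 and -0.44), and so did the Integrator subunit INTS10 (-0.60 and -0.38). Other subunits of both complexes rose, among them SNAPC4 (0.45 and 0.67) and INTS8 (0.65 and 0.86). Of 12 Cajal body and SMN complex genes 4 rose and 4 fell as deposited and 8 rose and 2 fell after scaling, with GEMIN4 higher (0.38 and 0.60) and SMN2 lower (-0.36 and -0.14), though SMN2 shares most of its sequence with SMN1. Of 18 proteins of the U3 processome 3 rose and 8 fell, with UTP14A and UTP15 the lowest in p. After scaling 9 of the 18 rose and 2 fell.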

How the data were processed

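Per the file headers the authors deposited FPKM by gene, given to 2 decimals. The submitters' processing notes name the builds GRCh38 and hg38 and the tools HISAT, StringTie and Cufflinks, without role or version. The deposited read counts per splicing event hold none of these genes and were not used.

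Tests used limma 3.58.1 (R 4.3.3, with its trend of variance on level) on log2(FPKM + 1), two-sided, restricted to genes whose mean reached 1 FPKM, with Benjamini-Hochberg over all tested genes, threshold 0.05. This scale understates changes of low genes. Reads were computed as FPKM times length less 46 bases times the depth, 23500000 to 24700000 reads per library; whether these are reads or read pairs is not known. Intervals are 95%, exact Poisson for reads and exact binomial (Clopper-Pearson) for ratios. FPKM carry no counts, so no count model was run. The other steps ran in Python 3.11.15 (pandas 2.3.3, scipy 1.17.1). The limma fit was tested on simulated data, and the Python steps were not. Replicates of a group correlated at 0.996 to 0.998 (Pearson, across genes), and no 2 libraries held the same values. The RefSeq table (GRCh38.p14) gave names, lengths and host spans for 136 genes and has no strand, so hosts were taken on either strand.

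Named genes were those of fixed lists, the 6 highest means per class, the 5 largest rises and falls and those whose call changed with scaling. RNU105A, SNORA57, RNU6-33P, RNU6-36P, SNORA29 and SNORD15B were added after the values were seen. In each protein list the 2 lowest p were named, and SNAPC4 and INTS8 were added after the values were seen. The genes and lists were chosen with earlier results of these data known. Alternatives were the scaling, filter, pseudocount, trend, replicate number as a block and each library left out. Fits with shared copies summed, and the RNU sum without the U1 copies, were added after the data were seen.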

Additional observations from a re-analysis of the deposited data

How the results depend on the processing

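SNORD3A, RNU1-1, RNU105A and SNORA65 kept direction and call in every alternative run on that gene; with copies summed, U1 and RNU105A are in their sums. RNU2-1 was not called at a filter of 0.1 (limma, adjusted p = 0.054), without a filter (0.129) or without the trend (0.0533). The 9 genes called higher became 18 of 92 at the 0.1 filter, where 13.5% of all tested genes rose. With copies summed, where the 6 U1 copies count once, they became 5 of 23, against 13.4% of all tested genes. Leaving out 1 library gave 8 to 12, where 11.9% to 13.1% of all tested genes rose and 56.2% to 61.4% fell. The 1 gene called lower became 5 at the 0.1 filter, where 51.9% of all tested genes fell. Without a filter it became 3, also with copies summed, against 40.1% of all tested genes in either run. With 1 library left out it became 1 to 3 (3 without replicate 2 of either group, 2 without KDM4B replicate 1 or vector replicate 1 or 3). Same-numbered libraries correlated at -0.02 and 0.13 over 2 pairs, and differently numbered ones at -0.15 to 0.10. The 2 pairs are too few to say whether the numbers pair the libraries. With the replicate block 15 of the 30 genes rose and 7 fell, against 13.0% and 56.6% of all tested genes.

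Scaling moved the class sums to 1.20 (SNORA), 3.89 (SNORD) and 1.19 (SCARNA). Without the highest gene the ratios were 1.08 (SNORA), 0.969 (SNORD) and, for RNU, 5.01; without the 6 U1 copies RNU gave 1.74. Class medians over genes with signal in at least 1 library gave ratios of 6.27 (SNORA), 1.51 (SCARNA) and 7.75 (RNU). The ratio could not be computed for SNORD. These medians rest on few reads, since 33 of the 74 SNORA genes with signal had 3 or fewer in all libraries together. The RNU median counts the 6 U1 copies separately. At 1 FPKM or more, a mean of 31.7 genes was detected in the KDM4B-labelled libraries and 25 in vector. Proteins turned to 42 higher and 20 lower with scaling.

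On the log2(FPKM + 1) scale, scaling gave 0.013 for SCARNA16, 0.062 for SCARNA17 and 0.077 for SNORD17, also with copies summed. The replicate block, resting on 2 pairs of libraries, gave 0.24 (SCARNA16), -0.32 (SNORA40) and -0.29 (SNORA81). Each was called with the changed sign (limma, adjusted p = 0.0291, 0.00372 and 0.00441). The block also gave -0.012 (SNORA67), 0.038 (SNORA70) and 0.20 (SNORD17), not called. With 1 library left out, values ran from -0.16 to 0.74 for RNU6-2, -0.43 to 0.90 for RNU6-36P, -0.42 to 0.025 for SCARNA12, -0.45 to 0.091 for SCARNA16, -0.27 to 0.15 for SCARNA17, -0.12 to 0.32 for SNORA4, -0.16 to 0.35 for SNORA40, -0.52 to 0.14 for SNORA61, -0.062 to 0.34 for SNORA67, -0.77 to 0.15 for SNORA8, -0.14 to 0.35 for SNORA81 and -0.20 to 0.11 for SNORD17. The cause was not tested.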
